A study of Mus musculus with 14 samples.

Results

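The genes described here are those of ISG15 conjugation and the interferon-induced poly(ADP-ribose) polymerase (PARP) group, taken by name: Isg15, Uba7, Ube2l6, Herc6, Trim25, Usp18, Parp9, Dtx3l, Parp12 and Parp14. Of these 10 genes, 9 were listed in the deposited table of 13866 genes, and all 9 were among the 11852 genes tested. Herc6, the HERC-family ligase that joins ISG15 to proteins in the mouse, was not listed and is not analysed here. RNA came from the brains of mice of 19 days, with 1 library per mouse. There were 3 mice each in the groups WT + PBS, WT + CBE and MyTrMaSt + PBS, and 5 in MyTrMaSt + CBE. WT mice were of the strain C57BL/6JOlaHsd. MyTrMaSt null mice lack Myd88, Trif (Ticam1), Mavs and Tmem173 (STING) as constitutive deletions in all cells. These are the adaptors through which Toll-like receptors, RIG-I-like receptors and cytosolic DNA sensing lead to interferon production. The WT mice came from a vendor (Envigo), per the study's methods, so a difference between the lines in anything but the 4 genes cannot be told apart from the deletions. Conduritol B-epoxide (CBE) irreversibly inhibits acid beta-glucosidase, a lysosomal enzyme that is deficient in Gaucher disease. It was injected daily at 100 mg/kg, and control mice received phosphate buffered saline (PBS).

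ISG15 is a ubiquitin-like protein that type 1 interferon (IFN) induces. UBA7 activates it, UBE2L6 carries it, and ligases of the HERC and TRIM families join it to target proteins, from which the protease USP18 removes it. USP18 also binds the IFN receptor and dampens its signal. PARP9 and its partner DTX3L, PARP12 and PARP14 are proteins of ADP-ribosylation that IFN induces in many cell types, and several of them restrict viruses. The genes of both groups are widely used as readouts of IFN signaling through a transcription factor complex with STAT2 and IRF9, which binds the IFN-stimulated response element.

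The 9 genes lie on 6 chromosomes of mm10 (GENCODE M21). Isg15 is at chr4:156199424-156200818 on the minus strand, Uba7 at chr9:107975505-107984060 on the plus strand, and Ube2l6 at chr2:84798828-84810335 on the plus strand. Trim25 is at chr11:88999376-89020293 and Usp18 at chr6:121245906-121270917, both on the plus strand. Parp12 is at chr6:39086410-39118349 on the minus strand. Parp14 (chr16:35832874-35871544, minus strand), Dtx3l (chr16:35926511-35939151, minus strand) and Parp9 (chr16:35938470-35972605, plus strand) form 1 cluster of 140 kb. Dtx3l and Parp9 point away from each other and their spans share 682 bases at their starts, with 458 bases of exon on opposite strands. Whether counting used strand is not given in the sources used here, so reads in those shared bases cannot be assigned to one of them with certainty.

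The response element is shown in the promoter of Isg15, because this was the gene whose response to CBE was called as different between the genotypes. The stretch is from chr4:156200850-156200921, read on the minus strand (RefSeq, GRCm38.p6), and ends upstream of the start of Isg15. Capitals mark 3 overlapping matches to the core of the element, searched as GAAA, any 2 bases and GAAA again, whose first bases are at -78, -72 and -66 from the start.
Isg15: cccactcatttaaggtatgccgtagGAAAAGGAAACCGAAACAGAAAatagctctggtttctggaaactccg
Windows from 250 bases before to 50 bases after the start were at hand for 7 of the 10 genes (Isg15, Uba7, Ube2l6, Herc6, Trim25, Dtx3l and Parp12). Searched on both strands, the element core was found in the window of Isg15 alone, against 3.44% of all 32851 windows. TTCNNNGAA, the gamma-activated site, was found in 0 of the 7 windows, against 8.30% of all windows. These matches describe letters in a window and not bound sites.

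Library totals ran from 1290616 to 3704691 counts, and the median count of a tested gene from 29 to 107. Levels are given as CPM, counts scaled to library size, with library sizes adjusted by the trimmed mean of M values (TMM). Differences were tested with the edgeR quasi-likelihood F test and Benjamini-Hochberg adjustment over all 11852 genes, and a gene was called when its adjusted p was below 0.05 and its difference 2-fold or more. WT + PBS replicate 1 stood apart as the smallest library, with a TMM factor of 0.861 against 0.957 to 1.03 in the others. Counts of Xist, an RNA made from the inactive X chromosome of females, were 0 in all 3 WT + PBS libraries and 47, 1 and 30 in WT + CBE replicates 1 to 3. They were 32 to 46 in MyTrMaSt + PBS and 0 to 39 in MyTrMaSt + CBE. The sex of the mice is not given in the sources used here, and the Xist level moved with the treatment in WT mice and with the genotype under PBS. All 4 deleted adaptors still gave counts in the null mice (Myd88 9 to 22, Ticam1 10 to 26, Mavs 7 to 30 and Tmem173 17 to 34, beside 19 to 71, 10 to 26, 11 to 31 and 1 to 30 in WT mice), and 3' reads outside a deleted part do not check a deletion.

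In WT brains CBE raised 4 of the 5 listed genes of ISG15 conjugation and all 4 PARP-group genes, by 3.83-fold for Ube2l6 to 21.3-fold for Usp18. Of the 9 genes, 8 rose (Isg15, Ube2l6, Trim25, Usp18, Parp9, Dtx3l, Parp12 and Parp14), where 5.20% of all tested genes were called higher. In those 8 genes each of the WT + CBE libraries lay above each of the WT + PBS libraries, which held for 15.1% of all tested genes. The median log2 fold change of the 9 genes was 2.78, beside -0.018 for all tested genes. Of the 9 genes, 5 (Uba7, Usp18, Parp9, Dtx3l and Parp14) passed the filter on low counts only through the WT + CBE libraries, in which they were high, so the counts and the median over the 9 genes, here and between the genotypes under CBE, are descriptions that support nothing by themselves. With no filter on low counts 8 of the 9 were called as well. The summed level of the 9 genes was 50.8 to 70.9 CPM in WT + PBS, 382 to 451 CPM in WT + CBE, 38.0 to 45.1 CPM in MyTrMaSt + PBS and 37.0 to 52.5 CPM in MyTrMaSt + CBE. In whole brain RNA, fewer cells of a type and less RNA per cell cannot be told apart.

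**Figure D1:**
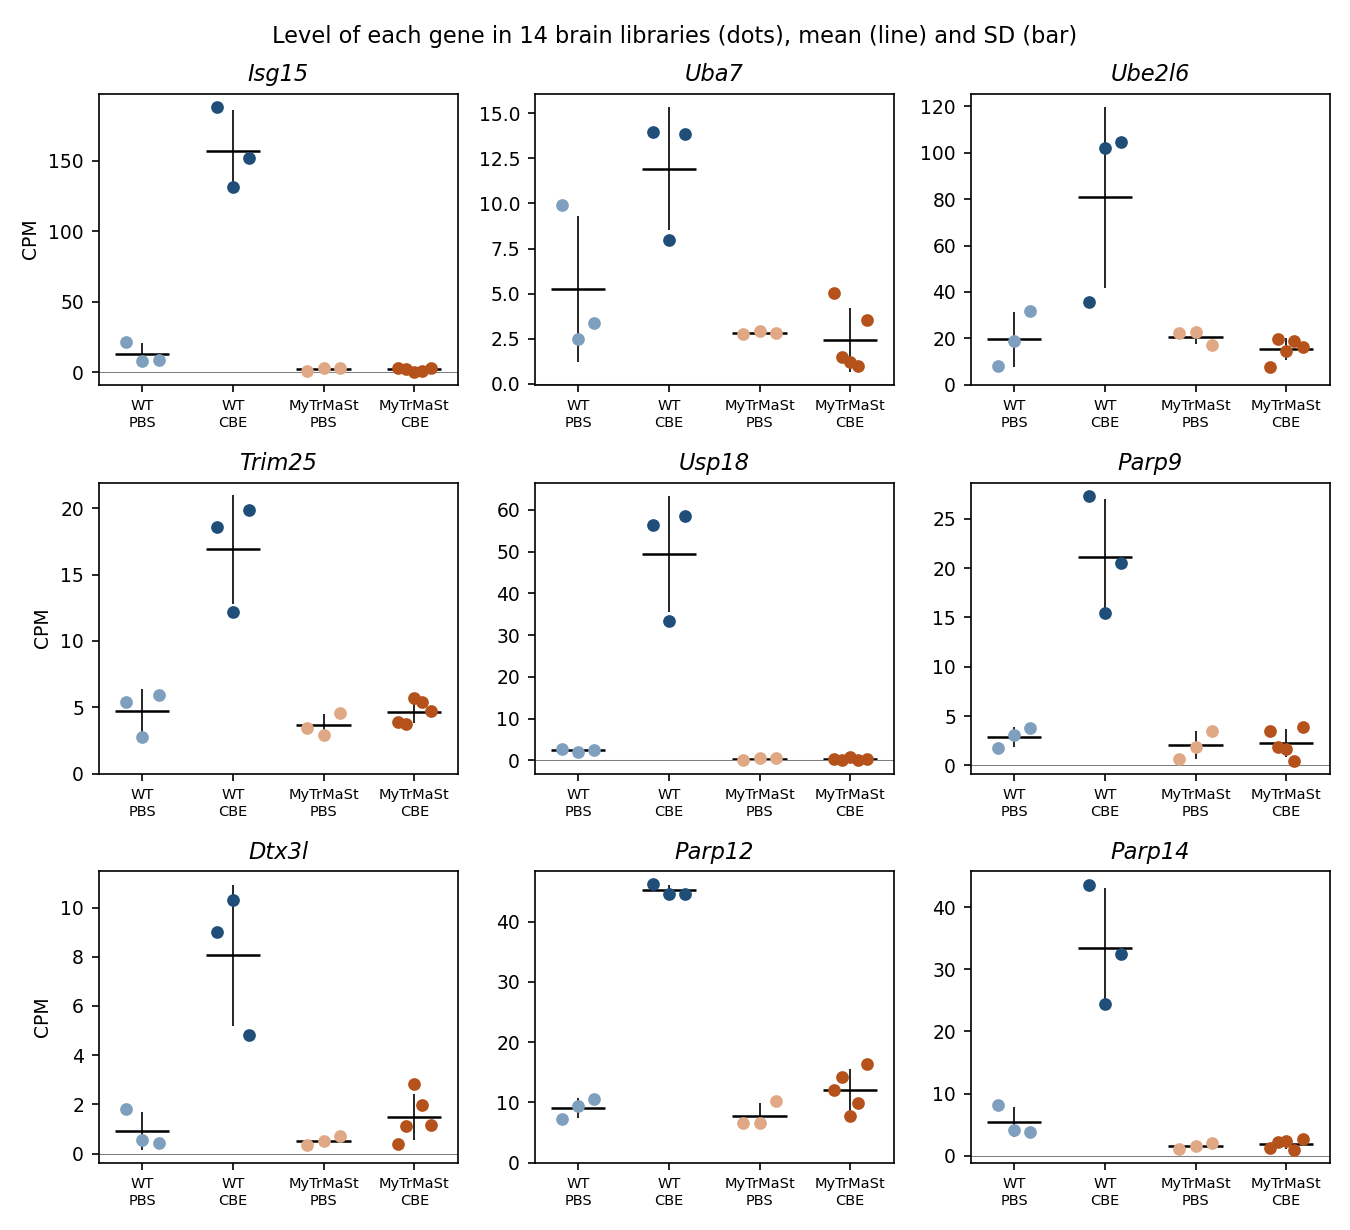
Level of each of the 9 genes in CPM (y axis, 1 scale per gene) in the 14 libraries of the 4 groups (x axis); dots are libraries, the horizontal line is the group mean and the vertical bar its SD. In every panel except Uba7 the 3 WT + CBE libraries lie above all other libraries.

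Isg15 itself, the modifier, was at 21.7, 7.74 and 8.86 CPM in WT + PBS replicates 1 to 3 and at 188, 131 and 152 CPM in WT + CBE replicates 1 to 3. The lowest CBE library was thus several times the highest PBS library, which was replicate 1. Isg15 rose 14.05-fold (log2 fold change 3.81 ± 0.34, SE, adjusted p = 3.60e-07). Without WT + PBS replicate 1 its log2 fold change was 4.26.

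Uba7, the E1 enzyme that activates ISG15, was at 9.93, 2.49 and 3.37 CPM in the WT + PBS libraries and at 13.97, 7.98 and 13.9 CPM in the WT + CBE libraries. The groups overlapped, since WT + PBS replicate 1 lay above WT + CBE replicate 2. The log2 fold change was 1.49 ± 0.48 (SE), and the gene was not called (adjusted p = 0.0533). Without WT + PBS replicate 1 the log2 fold change was 2.06 and the gene was called (adjusted p = 0.00369). With the Xist level as a covariate it was 0.71 (adjusted p = 0.632).

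Ube2l6, the E2 enzyme that receives ISG15 from UBA7, was at 8.12, 18.8 and 31.6 CPM in WT + PBS and at 35.5, 102 and 105 CPM in WT + CBE. WT + CBE replicate 1 was low for its group and only just above the highest PBS library. Ube2l6 rose 3.83-fold (log2 fold change 1.94 ± 0.40, SE, adjusted p = 0.00376). Fitted on the 6 WT libraries alone, the log2 fold change was 1.98 and the adjusted p 0.0807. Trim25, a ligase that acts on the RNA sensor RIG-I and can also transfer ISG15, was at 5.41, 2.76 and 5.91 CPM in WT + PBS and at 18.6, 12.2 and 19.9 CPM in WT + CBE. The CBE libraries were all clear of the PBS libraries. Trim25 rose 3.84-fold (log2 fold change 1.94 ± 0.32, SE, adjusted p = 0.000448).

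Usp18, the protease that removes ISG15, rose from a few counts per library in WT mice. Its levels were 2.71, 1.93 and 2.53 CPM in WT + PBS (3, 7 and 6 counts) and 56.4, 33.3 and 58.4 CPM in WT + CBE (194, 71 and 97 counts). Usp18 rose 21.3-fold (log2 fold change 4.41 ± 0.38, SE, adjusted p = 2.08e-07). With the Xist level as a covariate its log2 fold change was 3.64 (adjusted p = 6.78e-05). The carrier and ligase genes of conjugation had lower fold changes than the modifier and the deconjugating protease in these mice. The 95% intervals of the log2 fold changes of Ube2l6 (1.09 to 2.79) and Trim25 (1.26 to 2.62) lay below those of Isg15 (3.09 to 4.53) and Usp18 (3.61 to 5.21). The difference between the genes was not tested.

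Parp9, a macrodomain protein that works with DTX3L, was at 1.80, 3.04 and 3.80 CPM in WT + PBS and at 27.3, 15.5 and 20.5 CPM in WT + CBE. It rose 6.88-fold (log2 fold change 2.78 ± 0.43, SE, adjusted p = 0.000238). With the Xist level as a covariate its log2 fold change was 2.05 (adjusted p = 0.0525). Dtx3l, the ubiquitin ligase that binds PARP9, held 2, 2 and 1 counts in the WT + PBS libraries and 31, 22 and 8 counts in the WT + CBE libraries. Its summed counts per library size were 11.98-fold higher with CBE (95% counting interval 4.86 to 38.2), and the gene was called (adjusted p = 0.000365). Both genes were low in PBS and present in each CBE library.

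Parp12, a mono-ADP-ribosyltransferase, was at 7.22, 9.39 and 10.5 CPM in WT + PBS and at 46.3, 44.6 and 44.6 CPM in WT + CBE. The CBE libraries were nearly equal for this gene, with a coefficient of variation of 2.14%. Parp12 rose 4.82-fold (log2 fold change 2.27 ± 0.26, SE, adjusted p = 6.82e-06). Parp14, a large macrodomain-containing mono-ADP-ribosyltransferase, was at 8.12, 4.14 and 3.80 CPM in WT + PBS and at 43.6, 24.4 and 32.5 CPM in WT + CBE. Parp14 rose 7.01-fold (log2 fold change 2.81 ± 0.33, SE, adjusted p = 8.54e-06). With the Xist level as a covariate its log2 fold change was 2.18 (adjusted p = 0.0043). Within its group, WT + CBE replicate 1 was the highest library for Isg15, Uba7, Parp9, Parp12 and Parp14, and the lowest for Ube2l6.

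The count of genes called in WT mice did not rest on the library that stood apart. Without WT + PBS replicate 1, 9 of the 9 genes were called, with log2 fold changes of 4.48 for Usp18, 1.68 for Ube2l6, 2.05 for Trim25, 2.67 for Parp9, 2.20 for Parp12 and 3.08 for Parp14. With the Xist level as a covariate 7 were called, all but Uba7 and Parp9.

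In MyTrMaSt null mice no change of the 9 genes with CBE was called. From these libraries alone 3 of the 9 (Ube2l6, Trim25 and Parp12) passed the filter on low counts, and the other 6 were tested only because the WT libraries were in the fit. By edgeR, DESeq2 and limma voom 0 of 9 were called, which is no result about the 9 genes beside 3.89% of all tested genes called in either direction. Of the 9 genes, 2 had an unadjusted p below 0.05 by edgeR (Parp12 and Dtx3l), a share near the 23.7% of all tested genes. The MyTrMaSt + CBE and MyTrMaSt + PBS libraries overlapped for each of the 9 genes, where 11.8% of all tested genes were higher and 10.7% lower without overlap. Isg15 was at 1.04, 2.64 and 3.17 CPM in MyTrMaSt + PBS and at 2.73, 2.25, 0.41, 0.98 and 3.13 CPM in MyTrMaSt + CBE. Those 5 CBE libraries held 1 to 8 counts, and they overlapped the PBS libraries. The log2 fold change was -0.24 (95% interval -1.42 to 0.94, adjusted p = 0.839), so a rise of the size seen in WT mice lay outside its interval.

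Usp18 held 0, 2 and 2 counts in MyTrMaSt + PBS and 1, 0, 2, 0 and 1 counts in MyTrMaSt + CBE. No library of either group exceeded 3 counts, so no fold is given. A fall could not be seen from such counts, and the gene was tested only because the WT libraries were in the fit. The upper end of its fitted 95% interval was 1.65 on the log2 scale, and nothing is read from it. Dtx3l held 1, 2 and 2 counts in MyTrMaSt + PBS and 1, 3, 7, 4 and 3 counts in MyTrMaSt + CBE. Its summed counts per library size were 2.79-fold those of PBS (95% counting interval 0.998 to 9.61, adjusted p = 0.210). Parp9 was at 0.69, 1.85 and 3.52 CPM with PBS and at 3.51, 1.88, 1.62, 0.49 and 3.91 CPM with CBE. Its log2 fold change was 0.23 (95% interval -0.89 to 1.34, adjusted p = 0.839).

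Parp12 had the smallest adjusted p of the 9 genes in the null mice. It was at 6.56, 6.60 and 10.2 CPM in MyTrMaSt + PBS and at 12.1, 14.3, 7.70, 9.85 and 16.4 CPM in MyTrMaSt + CBE. In 3 of the 5 CBE libraries it exceeded the highest PBS library, and the log2 fold change of 0.65 (95% interval 0.12 to 1.18) did not pass the test (adjusted p = 0.125). Parp14 was at 1.04, 1.59 and 2.11 CPM with PBS and at 1.17, 2.25, 2.43, 0.98 and 2.74 CPM with CBE, a log2 fold change of 0.30 (95% interval -0.72 to 1.31).

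None of the conjugation enzymes passed the test in the null mice. Uba7 was at 2.76, 2.91 and 2.82 CPM in MyTrMaSt + PBS and at 5.07, 1.50, 1.22, 0.98 and 3.52 CPM in MyTrMaSt + CBE, with a log2 fold change of -0.17 (95% interval -1.27 to 0.93). Ube2l6 was at 22.1, 22.7 and 17.3 CPM with PBS and at 7.79, 19.9, 14.6, 18.7 and 16.4 CPM with CBE, with a log2 fold change of -0.43 (95% interval -1.22 to 0.37). Trim25 was at 3.45, 2.91 and 4.58 CPM with PBS and at 3.90, 3.76, 5.67, 5.42 and 4.70 CPM with CBE, with a log2 fold change of 0.37 (95% interval -0.32 to 1.05). Each of these intervals spans 0.

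**Figure D2:**
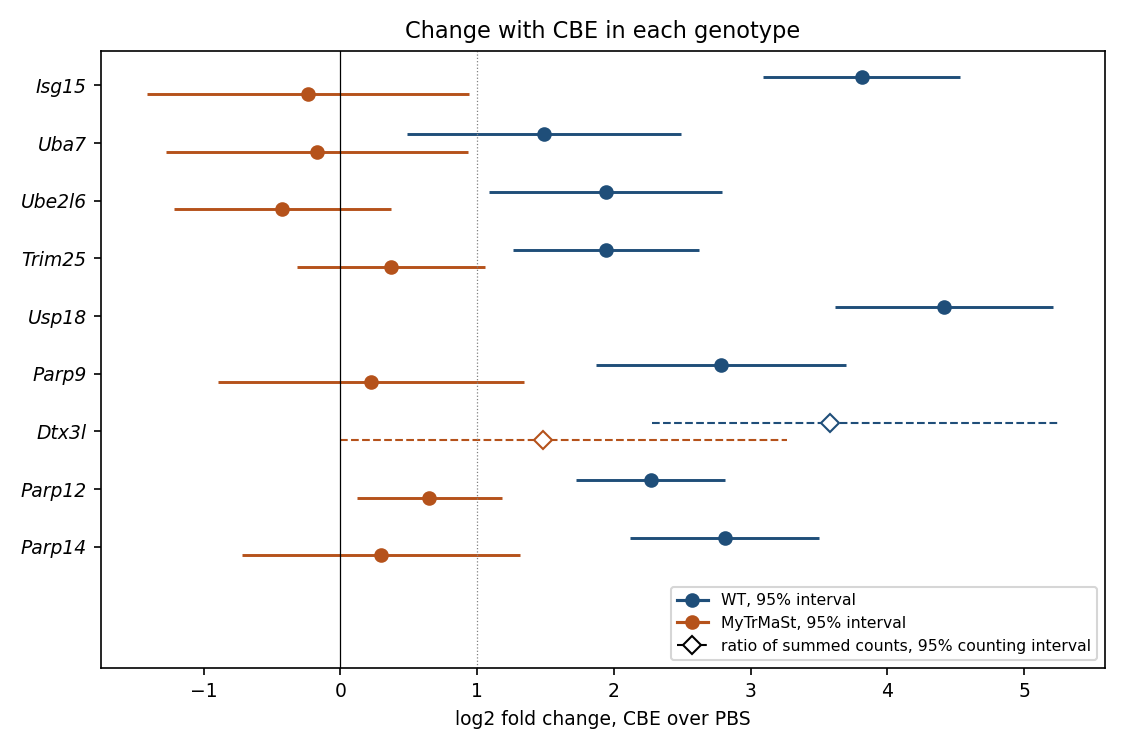
Log2 fold change of CBE over PBS (x axis) for the 9 genes (y axis) in WT (blue) and MyTrMaSt (orange) mice; filled dots are fitted values with 95% intervals, open diamonds are ratios of summed counts with 95% counting intervals, the solid line marks no change and the dotted line 2-fold. The WT values lie between 1.49 and 4.41, the MyTrMaSt intervals include 0 except that of Parp12 (0.12 to 1.18), and Usp18 has no MyTrMaSt value because both of those groups held 3 counts or fewer.

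The difference between the genotypes in the response to CBE was tested as the genotype by treatment interaction, the log2 change in MyTrMaSt mice minus that in WT mice, called at an adjusted p below 0.05. All 9 genes had a negative interaction. Isg15 was the 1 gene called (-4.05 ± 0.69, SE, adjusted p = 0.00847), where 0.413% of all tested genes were called lower. At an unadjusted p below 0.05 there were 8 of the 9, all except Dtx3l, beside 4.94% of all tested genes in this direction. Of the 9 genes, Uba7, Usp18, Parp9, Dtx3l and Parp14 passed the filter on low counts only through the high WT + CBE libraries. That favours a negative interaction, so these counts over the 9 genes are descriptions that support nothing by themselves. The interaction was -1.62 for Parp12 (adjusted p = 0.0609), -2.36 for Ube2l6 (0.0736), -2.51 for Parp14 (0.110), -2.56 for Parp9 (0.175), -1.57 for Trim25 (0.199) and -1.66 for Uba7 (0.368). Usp18 (adjusted p = 0.139) and Dtx3l (0.431) held 3 counts or fewer throughout a group, and their size is not given. The count of 1 depended on the libraries and the tool: it was 4 without WT + PBS replicate 1 (Isg15, Ube2l6, Parp12 and Parp14), 6 by DESeq2, and 0 without MyTrMaSt + PBS replicate 2 or 3 or with the Xist level as a covariate.

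Compared directly under CBE, all 9 genes were lower in MyTrMaSt than in WT mice, where 1.93% of all tested genes were called lower. In none of the 9 did the 5 MyTrMaSt + CBE libraries overlap the 3 WT + CBE libraries, which was so, in this direction, for 6.02% of all tested genes. Isg15 was 79.0-fold lower (log2 difference -6.30 ± 0.34, SE, adjusted p = 5.89e-10). The summed counts of Usp18 per library size were 154-fold lower (95% counting interval 59.6 to 568, adjusted p = 1.57e-09). Among the ADP-ribosylation genes, Parp14 was 17.01-fold, Parp9 8.97-fold, Dtx3l 5.48-fold and Parp12 3.71-fold lower. Of the remaining conjugation genes, Ube2l6 was 5.14-fold, Uba7 4.71-fold and Trim25 3.60-fold lower. The highest adjusted p of the 9 was that of Uba7 (0.00437), and without WT + CBE replicate 1 Uba7 was not called (log2 difference -2.08, adjusted p = 0.0544, beside -2.24 with all libraries). This comparison shares the MyTrMaSt + CBE and WT + CBE libraries with the comparisons above and is not independent of them.

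Without CBE, 0 of the 9 genes were called between the genotypes by edgeR, beside 0.160% of all tested genes. Isg15, Usp18 and Parp14 had an unadjusted p below 0.05, as had 10.7% of all tested genes in this direction, and in these 3 genes each MyTrMaSt + PBS library lay below each WT + PBS library, as in 10.1% of all tested genes. The log2 difference was -2.25 ± 0.48 (SE, adjusted p = 0.0647) for Isg15 and -1.58 ± 0.47 (SE, adjusted p = 0.144) for Parp14. Usp18 was 5.37-fold lower in summed counts per library size (95% counting interval 1.73 to 22.1, adjusted p = 0.156). DESeq2 called Isg15 (log2 difference -2.34, adjusted p = 0.000388), and so did edgeR without WT + PBS replicate 2 or 3. Xist was at 0 counts in all WT + PBS libraries and at 32 or more in all MyTrMaSt + PBS libraries, so between these groups the genotype and the Xist level, or the sex of the mice, cannot be told apart. With the Xist level as a covariate in the fit of all 4 groups, the log2 difference of Isg15 was -2.71 (adjusted p = 0.272) and 0 of the 9 genes were called. Ube2l6 had a log2 difference of 0.0044 (95% interval -0.89 to 0.90), and its PBS libraries ran from 17.3 to 22.7 CPM in the null mice and from 8.12 to 31.6 CPM in WT mice.

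The order of the group means was therefore the same at the top for each gene, and not below it. WT + CBE was highest for all 9 genes. Below it, the 3 other groups could not be put in order for Ube2l6, Trim25, Uba7, Parp9, Dtx3l and Parp12, whose libraries overlapped. For Isg15, Usp18 and Parp14 the WT + PBS libraries lay above those of both null groups without overlap, and the null groups overlapped each other. The difference under PBS was not called by edgeR for any of these 3 genes, and WT + PBS was not tested against MyTrMaSt + CBE, so no order is read below WT + CBE.

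The 3 genes of the chromosome 16 cluster all rose in WT mice, and the tested genes next to them were not called. Of the tested genes within 100 kb of the cluster, Dirc2 (log2 fold change 0.27), Kpna1 (-0.22), Wdr5b (0.18), Fam162a (-0.31) and Ccdc58 (0.054) were not called. In WT mice 6.40% of all tested genes were called in either direction, so nothing about the cluster is read from so few genes. Parp14 lies 55.0 kb from Dtx3l, and Kpna1 begins 6.15 kb past the end of Parp9. Around all 9 genes, the nearest tested gene on each side gave 14 different neighbours, whose median log2 fold change in WT mice was -0.043. Of these, 2 were called in WT mice, Serping1 beside Ube2l6 (1.97) and Tbxas1 beside Parp12 (2.25), and both were called in MyTrMaSt mice as well (1.04 and 1.98), where Ube2l6 and Parp12 were not. Over all tested genes 6.40% were called in WT and 3.89% in null mice, and nothing particular to the neighbours is read from the 2.

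**Figure D3:**
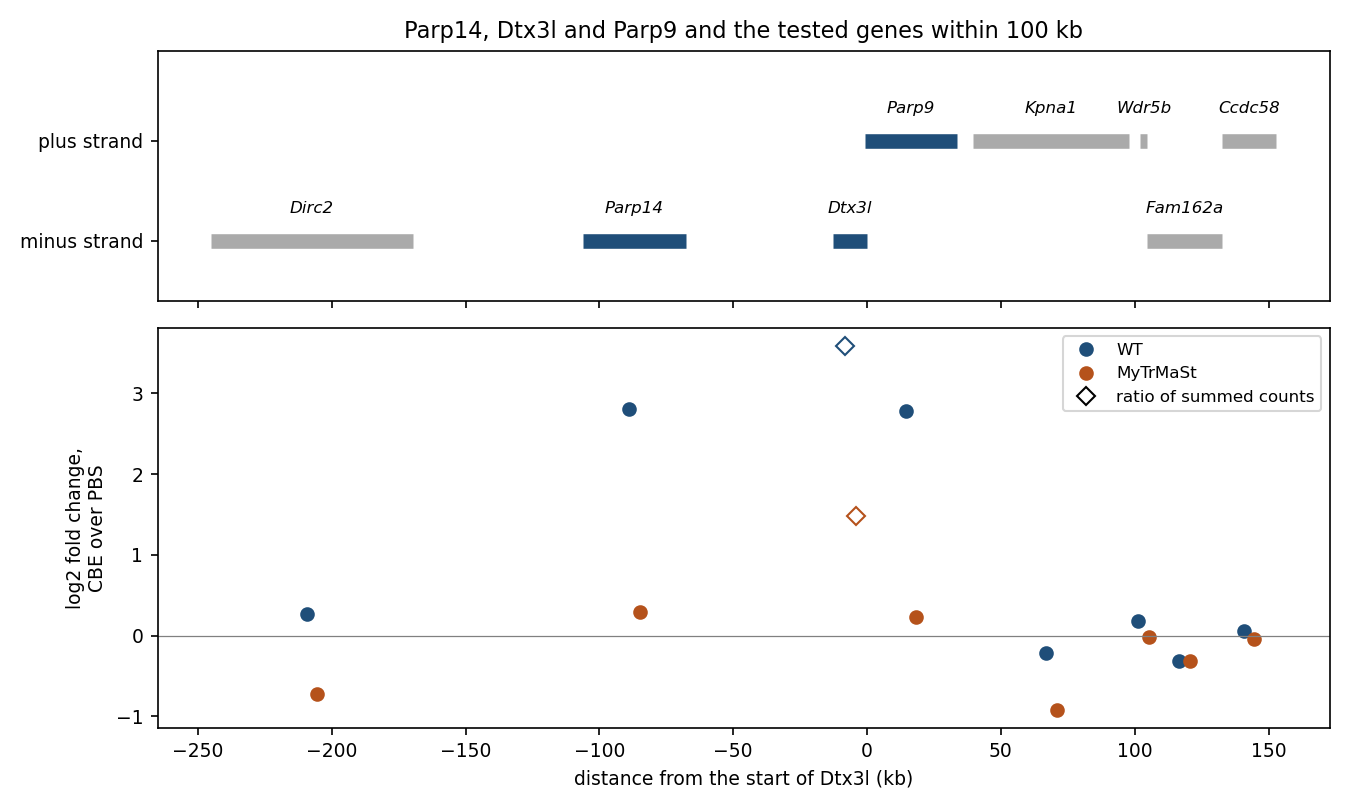
Upper panel: spans of Parp14, Dtx3l and Parp9 (blue) and of the tested genes within 100 kb (grey) on each strand, by distance in kb from the start of Dtx3l. Lower panel: log2 fold change of CBE over PBS at the middle of each gene in WT (blue) and MyTrMaSt (orange) mice, with open diamonds for ratios of summed counts (Dtx3l); the 3 cluster genes stand high in WT mice, and the 5 other genes lie between -0.31 and 0.27 in WT mice.

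A list of 34 held further genes of ubiquitin-like conjugation (E1 and E2 enzymes, ubiquitin, SUMO and NEDD8 genes, HERC ligases and USP proteases). Of these, 32 were listed and 31 tested. By edgeR, DESeq2 and limma voom 0 of the 31 were called with CBE in either genotype, beside 6.40% of all tested genes in WT and 3.89% in null mice by edgeR, and nothing particular to the list is read from it. At an unadjusted p below 0.05 edgeR gave 7 in WT and 5 in null mice. In null mice 23.7% of all tested genes were below that limit. In WT mice at least 2899 of the 11852 tested genes were, the rank held by Nedd8, the last of the 7. Nothing particular to the list is read from the 7 and the 5. Sumo3, which encodes a SUMO modifier, had a log2 fold change of 0.65 in null mice (adjusted p = 0.00411), under the 2-fold limit, and of 0.16 in WT mice (adjusted p = 0.547). Their median log2 fold change with CBE was -0.12 in WT mice and 1.4e-05 in null mice. Ube2l3, the ubiquitin carrier closest in name and family to Ube2l6, had a log2 fold change of -0.14 in WT mice (adjusted p = 0.635), and Uba1, the ubiquitin counterpart of Uba7, one of -0.38 (adjusted p = 0.191); these 2 genes and Sumo3 were chosen after their values were seen.

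Among 22 other genes of PARPs, ADP-ribose hydrolases and deltex ligases, all listed and 21 tested, 4 rose with CBE in WT mice. Of all tested genes, 5.20% were called higher there. Parp10, which like Parp14 attaches single ADP-ribose units, rose by 2.88 ± 0.30 on the log2 scale (SE, adjusted p = 2.53e-06). Zc3hav1, the zinc finger antiviral protein of the PARP family, rose 11.1-fold in summed counts per library size (95% counting interval 4.86 to 31.4, adjusted p = 0.00113). Parp3, a DNA repair PARP, rose by 1.82 (adjusted p = 0.00023) and Dtx4, a relative of Dtx3l, by 1.001 (adjusted p = 0.00441). In null mice Parp3 alone was called (1.45, adjusted p = 0.00142), where 3.89% of all tested genes were called in either direction. Dtx4 had a log2 fold change of 0.76 there (adjusted p = 0.0172), under the 2-fold limit, and its interaction was not called (-0.24, adjusted p = 0.740). In the same mice, Parp10 had a log2 fold change of 0.40 (adjusted p = 0.552). The interaction was called for Parp10 (-2.48, adjusted p = 0.0251), where 0.413% of all tested genes were called lower. The median of the 21 genes in WT mice was 0.061.

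Of 15 genes of IFN receptors, kinases, transcription factors and feedback inhibitors, all tested, 6 rose with CBE in WT mice, where 5.20% of all tested genes were called higher. Among these were Irf7 (4.73, adjusted p = 3.88e-08), Irf9 (2.87, 2.05e-07), Stat2 (1.65, 1.57e-05), the cytokine-signal inhibitor Socs3 (2.90, 0.00197) and Irf1 (1.48, 0.00829), as log2 fold changes. In null mice 1 was called, Socs3 (2.29, adjusted p = 0.00581), where 3.89% of all tested genes were called in either direction. The interaction was called for 4 of the 15, among them Irf9 (-2.33, adjusted p = 0.0031), Stat2 (-1.70, 0.0052) and Irf7 (-3.59, 0.0317). Of all tested genes, 0.413% were called lower in it. Of 13 other TRIM and RNA-sensing ligase genes, with the sensor RIG-I (Ddx58), 9 were listed and 7 tested, and 5 rose in WT mice. Log2 fold changes were 2.61 for Trim14, 2.48 for Trim12a, 2.26 for the antibody receptor Trim21 and 1.91 for Ddx58, and Trim34a was 8.59-fold higher in summed counts per library size (95% counting interval 3.07 to 33.3). In null mice 0 of the 7 were called by edgeR, and in the interaction 0. Beside the shares of all tested genes given above, 3.89% and 0.413%, these are no results about the list.

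**Figure D4:**
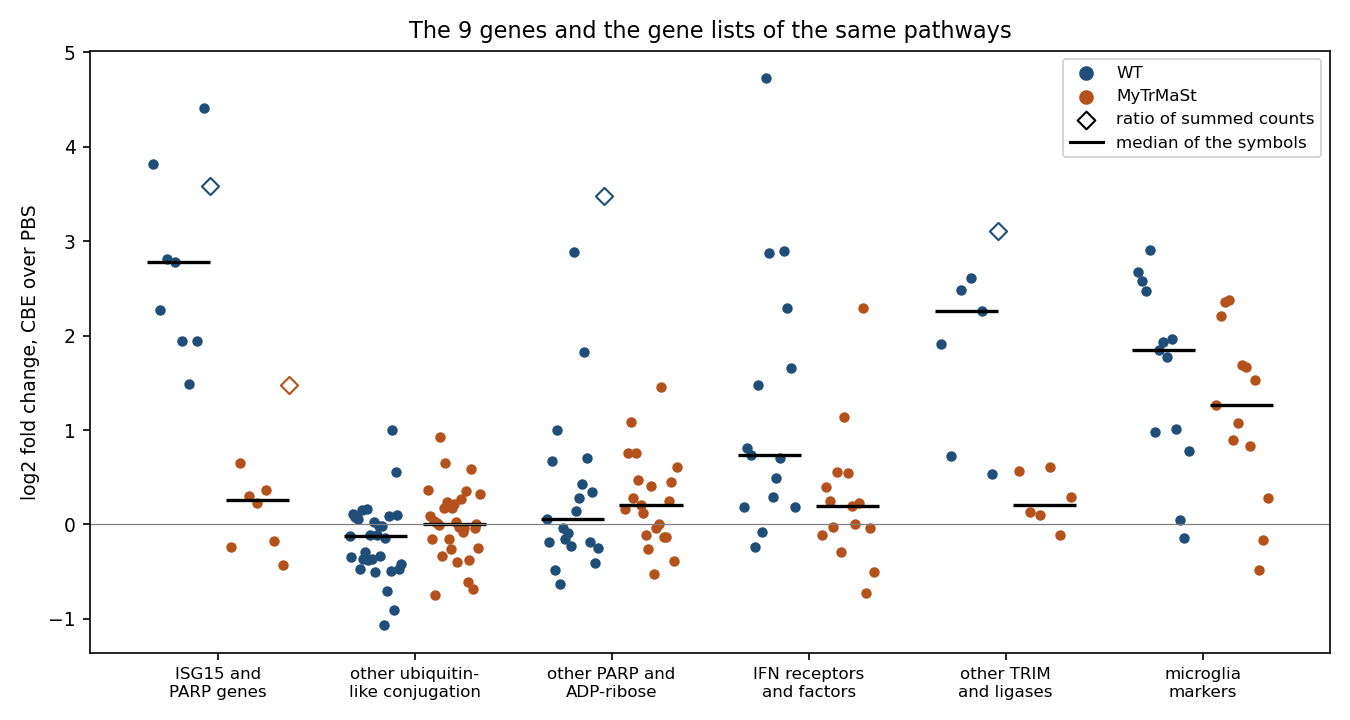
Log2 fold change of CBE over PBS (y axis) of the tested genes of 6 lists (x axis) in WT (blue) and MyTrMaSt (orange) mice; dots are fitted values, open diamonds ratios of summed counts, lines medians, and genes with 3 counts or fewer throughout both groups are left out. In WT mice the ISG15 and PARP genes lie between 1.49 and 4.41 while the genes of other ubiquitin-like conjugation have a median of -0.12, and 9 of the 13 microglia markers were called higher in WT and 8 in MyTrMaSt mice.

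Markers of microglia, the resident immune cells of the brain, moved with the treatment in both genotypes. Of 14 markers 13 were listed and tested, 9 were called higher in WT and 8 in MyTrMaSt mice, and 0 had a called interaction. Over all tested genes 5.20% were called higher in WT mice and 3.89% in either direction in null mice. In the interaction 0.413% were called lower, so the 0 is no result about the markers. Their summed level was 647 to 917 CPM in WT + PBS, 3309 to 3824 CPM in WT + CBE, 554 to 605 CPM in MyTrMaSt + PBS and 1883 to 2094 CPM in MyTrMaSt + CBE. The homeostatic markers P2ry12 (0.049) and Siglech (-0.14) were not called in WT mice, and C1qc (2.90) and Aif1 (2.68) were. Under CBE 3 of the 13 were lower in MyTrMaSt than in WT mice, where 1.93% of all tested genes were called lower. Of 10 blood leukocyte markers 3 were listed and 0 tested, with a summed level of 0 to 3.78 CPM over all libraries. Of the other brain cell lists, astrocyte markers were called higher in 2 of 7 cases in WT and 1 of 7 in MyTrMaSt mice, neuron markers lower in 1 of 7 in WT mice, and 0 of 5 endothelial markers were called with CBE by edgeR. In either direction 6.40% of all tested genes were called in WT and 3.89% in null mice, so nothing is read from the counts of 0 and 1. Of the 6 oligodendrocyte markers 0 reached the 2-fold change a call needs, but in WT mice all 6 had lower fitted levels with CBE (median log2 fold change -0.79), such as Mog (-0.99, adjusted p = 0.00118) and Cnp (-0.90, adjusted p = 0.00325). Their summed level was 16661 to 19985 CPM in WT + PBS and 10079 to 13102 CPM in WT + CBE, and 16485 to 19777 CPM and 12393 to 16616 CPM in the null mice. The part of these cell types in the changes of the 9 genes was not tested.

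The levels were also set against the summed level of the 13 microglia markers, a description added after the data were seen. That sum itself differed between the groups, so counts on this scale are read as nothing particular to the 9 genes. In WT mice, 2 of the 9 genes (Isg15 and Usp18) were higher with CBE without overlap on this scale, beside 1.31% of all tested genes. Per 1000 CPM of the markers, Isg15 was at 11.96 to 23.6 in WT + PBS and at 39.7 to 49.2 in WT + CBE. Usp18 was at 2.95 to 3.44 in WT + PBS and at 10.1 to 16.4 in WT + CBE. The other 7 genes overlapped between the groups on this scale; Parp12, for example, was at 7.87 to 14.5 in WT + PBS and at 12.1 to 13.5 in WT + CBE. In null mice, 6 of the 9 genes were lower with CBE than with PBS on this scale without overlap (Isg15, Uba7, Ube2l6, Trim25, Parp12 and Parp14), beside 93.3% of all tested genes. Trim25, at 4.96 to 8.26 in MyTrMaSt + PBS and at 1.93 to 3.01 in MyTrMaSt + CBE, is an example. Under CBE, 6 genes were lower in MyTrMaSt than in WT mice on this scale without overlap (Isg15, Trim25, Usp18, Parp9, Parp12 and Parp14), beside 1.29% of all tested genes, and Uba7, Ube2l6 and Dtx3l overlapped.

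**Figure D5:**
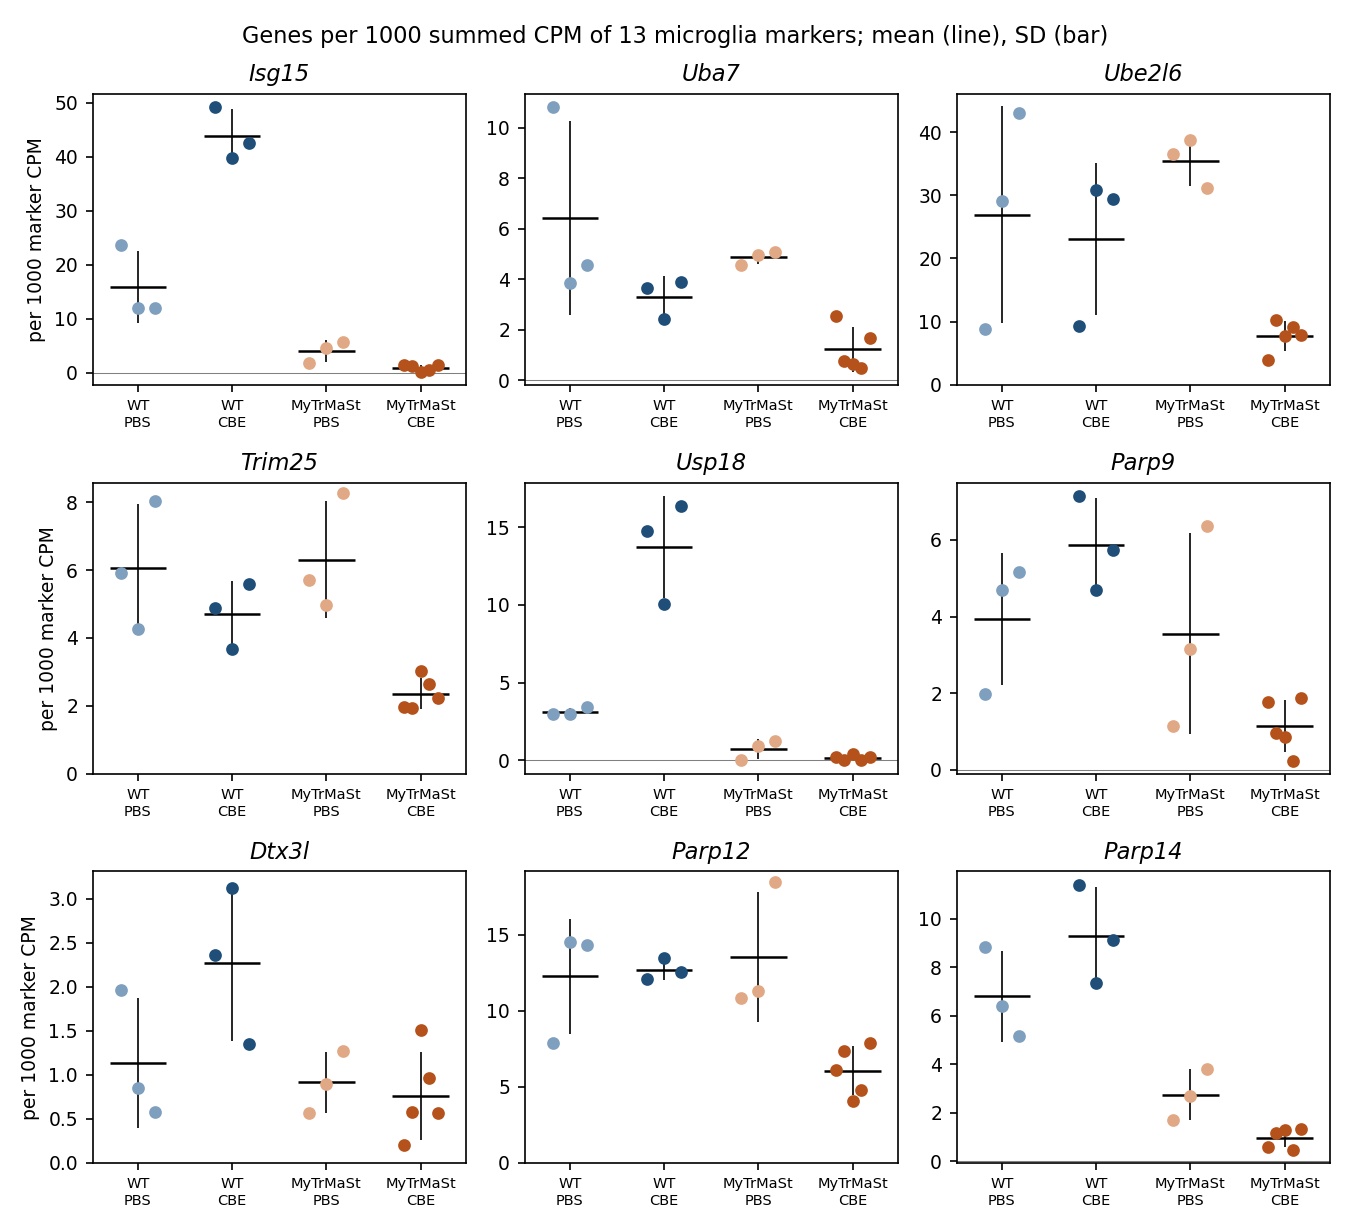
Level of each of the 9 genes per 1000 summed CPM of 13 microglia markers (y axis, 1 scale per gene) in the 4 groups (x axis); dots are libraries, the horizontal line is the group mean and the vertical bar its SD. Isg15 and Usp18 stand above all other libraries in WT + CBE, whereas the WT + CBE and WT + PBS libraries of the other 7 genes overlap.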

How the data were processed

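Brain RNA of 14 mice was counted. MARSseq libraries, which read transcript 3' ends, were made in bulk. The authors mapped the reads to mm10 with hisat, kept uniquely mapping reads and deposited whole-number counts per gene. The submitters' processing notes also name cutadapt and HTSeq. The annotation, strand setting and use of molecular identifiers are not given in the sources used here. The authors' normalized values and their table of fold changes, p values and adjusted p values were not used.

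The counts were fitted in R 4.3.3 with edgeR 4.0.16 (filterByExpr, TMM, quasi-likelihood F test, 1 mean for each of 4 groups, all 14 libraries). Intervals are at 95%, and counting intervals are exact Poisson intervals of the ratio of summed counts, which cover counting error only. They replace a fitted fold where all libraries of 1 group held 3 counts or fewer. The alternatives tried were RLE factors, DESeq2 1.42.0, limma 3.58.1 voom, no filter, at least 10 counts in every library, only the groups compared, a replicate block, the Xist level as a covariate, thinned counts, and each library left out. DESeq2 without independent filtering and the levels per microglia marker were added after the data were seen.

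The fit was tested on simulated data for WT + CBE versus WT + PBS (11664 genes): it called 40.4% of 2-fold, 95.9% of 4-fold and 98.0% of 8-fold changes, and 5 unchanged genes. Changes were set in genes drawn at random, from a baseline averaged over all libraries. These rates therefore do not describe genes with few counts, such as Usp18 and Dtx3l. Same-group libraries differed by a chi-square of 2.45 to 22.3 per degree of freedom over 19 pairs, so none were taken as the same library. Same-numbered libraries of different groups had deviations that correlated at -0.17 to 0.16 over 18 pairs, so the numbers were not taken as pairs.

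The genes, the other gene lists and the tests were chosen with earlier results of these data known. All listed genes of the group are named, and from the other pathway lists up to 6 genes called with CBE or in the interaction; some results are not reported here.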

Additional observations from a re-analysis of the deposited data

Results flagged for a closer look

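The response of Isg15 to CBE differed between the genotypes. The test of the difference itself, the genotype by treatment interaction of the edgeR quasi-likelihood fit, gave an adjusted p of 0.00847, where the change on the log2 scale was 3.81 for WT mice (n = 3 and 3) and -0.24 for MyTrMaSt mice (n = 5 and 3). All 3 WT + CBE libraries lay above the WT + PBS libraries, and the MyTrMaSt libraries of both treatments overlapped. The null libraries held 1 to 10 counts of Isg15. The interaction, -4.05 on the log2 scale, was -3.60 with the Xist level as a covariate (adjusted p = 0.0862) and -3.72 with thinned counts (0.0973). It was -3.91 without MyTrMaSt + PBS replicate 2 (adjusted p = 0.0771) and -3.80 without replicate 3 (0.110). The part of these low counts in the result was not tested.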

How the results depend on the processing

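The count of the 9 genes called was 7 to 9 in WT + CBE versus WT + PBS under all alternatives run (main value 8), 0 in MyTrMaSt + CBE versus MyTrMaSt + PBS (main value 0), and 8 or 9 in MyTrMaSt + CBE versus WT + CBE (main value 9). Not all 9 genes were tested under each alternative: 8 were with thinned counts, 3 in the null mice and 5 under PBS with only the groups compared, and 8 in the interaction and 5 under PBS by DESeq2 with independent filtering. In the interaction (main value 1) it was 6 by DESeq2 with or without independent filtering, 2 by voom, 0 with the Xist level as a covariate, 0 with thinned counts and 0 to 4 when a library was left out. In MyTrMaSt + PBS versus WT + PBS (main value 0) it was 1 by DESeq2 with or without independent filtering and 0 to 1 when a library was left out. Signs turned only in changes that were not called. When a library was left out, log2 changes with CBE in null mice ran from -0.55 to 0.023 for Isg15, from -0.61 to 0.0012 for Uba7 and from -0.14 to 0.80 for Parp9 (thinned: -0.43), and log2 differences under PBS from -0.25 to 0.46 for Ube2l6 (no filter: -0.00084) and from -0.66 to 0.022 for Trim25. The cause was not tested. With at least 10 counts in every library none of the 9 genes was left to test. The replicate block, for numbers that were not taken as pairs, gave 8, 0, 1, 9 and 0 called genes in the 5 comparisons, as without it.

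Over all genes, the counts called that moved by over 1.5 times were as follows. In WT + CBE versus WT + PBS the main 759 became 261 with at least 10 counts in every library and 459 with only the groups compared. In the null mice 461 became 166 with at least 10 counts and 292 with the block. In the interaction 58 became 130 by DESeq2, 18 with at least 10 counts, 32 with the block, 9 with Xist, 27 with thinned counts, and 24 (without MyTrMaSt + PBS replicate 3) to 105 (without WT + PBS replicate 1) when a library was left out. Under CBE 238 became 47 with at least 10 counts. Under PBS 19 became 110 by DESeq2, 11 with at least 10 counts, 2 with only the groups compared, 7 with the block, 3 with Xist, and 5 (without MyTrMaSt + PBS replicate 2) to 303 (without WT + PBS replicate 2) when a library was left out.

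Usp18 and Dtx3l held 7 counts or fewer in each null library and in each WT + PBS library, which limits the precision of their changes.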
